A study of Mus musculus with 6 samples.

Results

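The annexins are a family of proteins that bind membrane phospholipids when calcium rises. The genes described are the 9 members Anxa1, Anxa2, Anxa3, Anxa4, Anxa5, Anxa6, Anxa7, Anxa8 and Anxa11, out of 33924 gene symbols in the RPE/choroid table. The symbols alone define the set, but the family was selected on its fold changes in this table, because one member (Anxa4) stood high without a p-value. The fold changes, standard errors and p-values below therefore describe the members and are no independent test of the family. RNA came from the retinal pigment epithelium (RPE) and choroid of C57BL/6J mice, scraped together from the eyecup with a pair of eyes in each sample. There were 3 young mice, labelled as 1 to 2 months old, and 3 aged mice, labelled as 20 to 24 months old in the titles and as 22 to 24 months old in the time field. All 6 mice are labelled male, while the methods of the study include females and place the young mice at a somewhat greater age than the labels. The labels name no transgene or treatment, and the contrast set wild-type animals of different age against each other.

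Each annexin consists of a conserved core built from repeats that hold calcium and dock on phosphatidylserine and other acidic lipids, and of a short, variable N-terminal head that binds partners such as S100 proteins. Through these contacts annexins take part in exocytosis, endocytosis, membrane repair, clotting and the ending of inflammation. Annexin A5 is the protein used in the laboratory to stain cells that expose phosphatidylserine, and phosphatidylserine is also the signal by which the RPE recognizes shed photoreceptor tips.

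The head is where the members differ most plainly, so the first 45 coding bases of 6 members are shown, read 5′ to 3′ from the GENCODE transcripts of build GRCm38, with the start codon in capitals.
Anxa1: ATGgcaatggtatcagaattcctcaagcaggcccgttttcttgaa
Anxa2: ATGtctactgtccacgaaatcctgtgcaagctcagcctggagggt
Anxa4: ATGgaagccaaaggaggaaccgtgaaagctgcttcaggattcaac
Anxa5: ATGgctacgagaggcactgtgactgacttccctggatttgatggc
Anxa7: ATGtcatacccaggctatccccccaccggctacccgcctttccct
Anxa11: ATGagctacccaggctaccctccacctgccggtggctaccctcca
The starts of Anxa1 and Anxa2 encode the heads known to bind S100 proteins, whereas Anxa7 and Anxa11 open with the stretch rich in glycine, tyrosine and proline that is typical of these 2 long-headed annexins. Over the whole coding sequence, the 36 pairs of members were between 52.3% identical (Anxa2 and Anxa7) and 62.5% identical (Anxa4 and Anxa5) at aligned bases. No word of 31 bases was shared between any 2 annexin genes, so reads of one member had no perfect match of that length in another.

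The deposited table has no value per library, so the depth of each library cannot be read from it. It lists for each gene a mean over all 6 libraries in normalized counts (baseMean), the log2 fold change, its standard error (SE) and a DESeq2 p-value before and after Benjamini-Hochberg adjustment. Spread between the mice enters through the SE alone. The tissue label was checked against marker genes. Of the 10 RPE markers listed, all were detected, with a baseMean of 43745 for Rpe65, the retinoid isomerase, and the 10 endothelial markers ranged from 1025 for Cdh5 to 6377 for Kdr. Genes of other tissues were present as well, with a baseMean of 51830 for the muscle gene Myh4 and 2793 for the keratin gene Krt15.

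All 9 members had a fold change. Of the 8 with an adjusted p, 4 were higher in aged mice by the deposited adjusted p (below 0.05), 0 were lower and 4 did not pass. Among all 18636 genes tested, 21.2% passed, 11.3% as higher (2100) and 9.92% as lower (1849) in aged mice, a split that went to 1655 and 2289 with fold changes centred on abundant genes. Since the members were chosen with this contrast in view, nothing is read from their count. Within the span of baseMean covered by the members there were 9793 tested genes, of which 14.9% were higher and 7.65% lower. The median log2 fold change of the 8 tested members was 0.22, against -0.01 over all genes tested and 0.09 over those in the same span, and with Anxa4, on which the family was selected, it was 0.46. In whole tissue a larger share of cells that express a gene and more RNA of that gene per cell cannot be told apart.

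**Figure D1:**
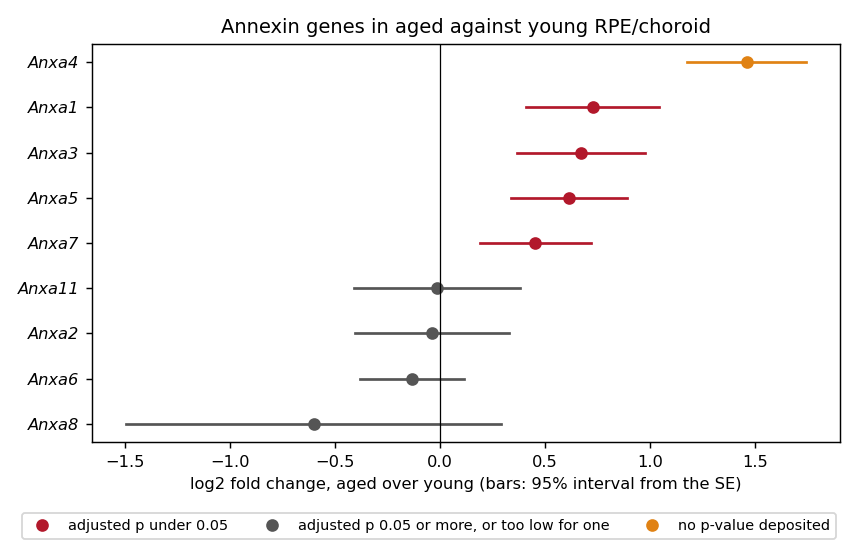
Log2 fold change of each annexin gene in aged over young RPE/choroid (x axis), from the authors' table, with bars for the 95% interval from the SE over 3 young and 3 aged libraries. Anxa4 lies at 1.46, Anxa1, Anxa3, Anxa5 and Anxa7 lie between 0.46 and 0.73, and the intervals of Anxa11, Anxa2, Anxa6 and Anxa8 hold 0.

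Anxa4 had the largest fold change of the family. It encodes annexin A4, a protein of secretory epithelia that binds to membranes beneath the cell surface, and lies on chromosome 6 at 86736840 to 86793584 (GRCm38, minus strand). Its baseMean was 1697 and its log2 fold change 1.46 (SE 0.14), a fold of 2.75 with a 95% interval of 2.26 to 3.35. Worked out from baseMean and fold change, this corresponds to about 904 normalized counts in young and 2490.2 in aged mice.

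For Anxa4, however, the table holds neither a p-value nor an adjusted p. DESeq2 leaves out the p-value of a gene when 1 library has an extreme influence on the fit, and the table does not say which library that would be or whether it was a young or an aged one. Of the 26681 genes with a fold change, 160 (0.60%) lacked a p-value in this way. Of the 160, 12 changed by 1 or more on the log2 scale in either direction, and 6, Anxa4 included, stood at 1.46 or higher. By its Wald score of 10.1 (the fold change divided by its SE), Anxa4 ranked 4th among the 160. Among the 18636 tested genes, 144 had a Wald score as high. The SE of Anxa4 was close to the median SE of genes of similar abundance, 0.14 over 1425 tested genes within a factor of 1.25 in baseMean. Whether 1 library carries the fold change of Anxa4 could not be examined without values per library, and it is given here as a value with no call.

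A promoter window of Anxa4 is shown because the family was selected on the value of this member. The run holds the 120 bases before a transcript start in the RefSeq promoter table (GRCm38.p6), read 5′ to 3′ on the minus strand, in which a match to a searched motif would stand in capitals.
Anxa4, chr6:86793585-86793704: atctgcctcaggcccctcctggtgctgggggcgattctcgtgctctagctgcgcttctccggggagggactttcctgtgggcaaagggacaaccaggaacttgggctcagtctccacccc
The run held no match. Its whole window of 300 bases held 1 GC box just after the start, and a window at another start of Anxa4 held none. These starts lie 27674 and 9204 bases from that of the transcript with the longest coding sequence, so neither window is at the start of that transcript. Windows of 7 of the 9 members were searched on both strands for 7 motifs, with no overlap between matches. The TATA box (TATAAA) is found in 13.6% of all 32851 windows, and among the members it stood 32 bases before the start of Anxa1 and 17 bases before that of Anxa2. These RefSeq starts lie 273 (Anxa1) and 63 (Anxa2) bases from that of the GENCODE transcript with the longest coding sequence. The AP-1 motif (TGANTCA), found in 7.81% of windows, stood 95 bases before the start of Anxa2. The GC box (GGGCGG), found in 35.7%, was present in Anxa2, Anxa4, Anxa7 and Anxa11. The E-box (CACGTG), found in 7.15%, was present in a window of Anxa7 whose start lies 180 bases from that of the transcript with the longest coding sequence. The TEAD motif (GGAATG), found in 14.7%, was present in Anxa1. The CCAAT box (CCAAT, 37.4% of windows) and the PU.1/ETS motif (GAGGAAGT, 3.20% of windows) were in no member window. A match is a description of letters and says nothing of binding.

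Next in order was Anxa1, on chromosome 19 at 20373428 to 20390944 (minus strand). Annexin A1, also called lipocortin, is induced by glucocorticoids and restrains leukocyte recruitment through formyl peptide receptors. Its baseMean was 3263 and its log2 fold change 0.73 (SE 0.16, adjusted p 0.000115, DESeq2), a rise of 65.7% in aged mice with a 95% interval of 1.33-fold to 2.06-fold. The worked-out levels were about 2456 normalized counts in young and 4069 in aged mice. Of all tested genes, 5.96% had a larger log2 fold change.

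Anxa3 and Anxa5 followed at nearly the same fold. Anxa3, whose product is abundant in neutrophils and in some epithelia and vessels, lies on chromosome 5 at 96793339 to 96845966. Its log2 fold change was 0.67 (SE 0.16, adjusted p 0.000243, DESeq2) at a baseMean of 1422, which corresponds to about 1096 counts in young and 1747 in aged mice. The most abundant annexin was Anxa5 (chromosome 3, 36448923 to 36475894), with a baseMean of 8738 and the rank of 194 among all genes by baseMean. Its log2 value was 0.62 (SE 0.14, adjusted p 0.000192, DESeq2), or about 6902 counts in young and 10574 in aged mice. The step of Anxa5 was the largest of the members in counts, although its fold was not.

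Anxa7 rose least among the members that passed. Annexin A7, or synexin, promotes the fusion of membranes and of secretory granules, and its gene lies on chromosome 14 at 20455260 to 20480133. The log2 fold change was 0.46 (SE 0.13, adjusted p 0.00558, DESeq2) at a baseMean of 3306, with about 2788 counts in young and 3824 in aged mice. The 95% intervals of Anxa1, Anxa3, Anxa5 and Anxa7 overlapped one another, so their order is not resolved at this precision. The interval of Anxa7 (0.19 to 0.72) also overlapped that of Anxa11.

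**Figure D2:**
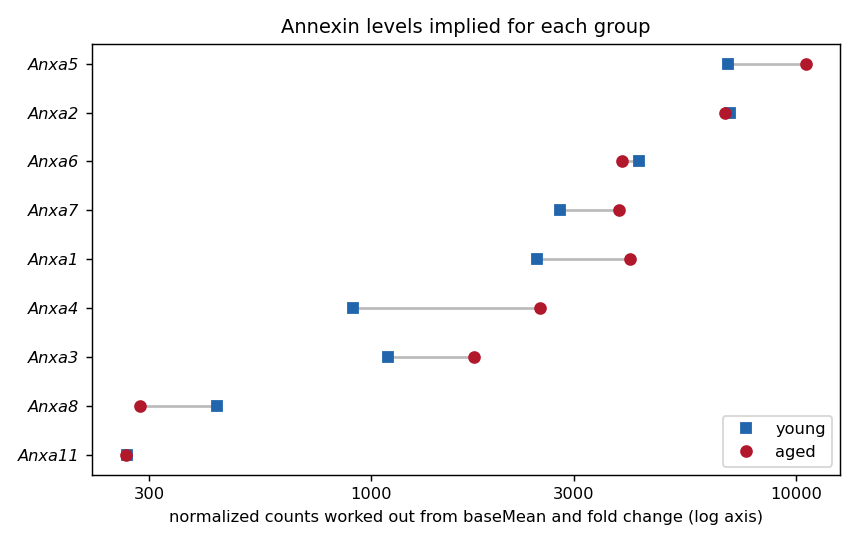
Levels of the annexin genes in young (squares) and aged (circles) mice in normalized counts on a log axis, worked out from the deposited baseMean and fold change and not measured per mouse. The widest gap is that of Anxa4, from 904 to 2490.2, while Anxa5 shows the largest step in counts, from 6902 to 10574, and the symbols of Anxa2 and Anxa11 nearly coincide.

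Several abundant annexins stood near no change. Anxa2 forms a complex with S100a10 on the plasma membrane that holds plasminogen and its activator. It was the second most abundant member (baseMean 6898, chromosome 9 at 69453620 to 69491795) and stood at -0.04 on the log2 scale (SE 0.19, adjusted p 0.925, DESeq2). Its 95% interval of 0.757-fold to 1.26-fold leaves out a rise as large as the estimates for Anxa1, Anxa3, Anxa5 and Anxa7. Anxa6, the annexin with a doubled core (673 residues, against 319 to 346 in Anxa1 to Anxa5 and 327 in Anxa8), lies on chromosome 11 at 54979108 to 55033445. It had -0.13 (SE 0.13, adjusted p 0.502, DESeq2) at a baseMean of 4074, with a 95% interval of 0.768-fold to 1.08-fold.

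Anxa11, which links RNA granules to lysosomes and binds the calcium sensors S100a6 and Pdcd6, lies on chromosome 14 at 25842156 to 25886804. Its log2 fold change was -0.01 (SE 0.20, adjusted p 0.980, DESeq2) at a baseMean of 266, the lowest of the members. Only 82.8% of the 31-base words of its transcripts occur in no other gene, the lowest share of the members, and 627 of its 4160 words are shared with Gm2260. Anxa11os overlaps it on the opposite strand, as other transcripts do for Anxa1, Anxa2, Anxa4 and Anxa8. Reads that fit several transcripts were shared out by the model of Sailfish, the quantifier used, and whether strand was used is not given in the sources used here. Anxa3 is overlapped on its own strand by Gm42603, with which it shares 85 words of its 3668, so strand could not separate these. These overlaps and words come from GENCODE M21, whereas the authors used an Ensembl annotation. Of the genes found to overlap a member or to share the most words with it, only Gm16144 (Anxa2) and Egfr (Anxa7) are among the gene symbols listed. Whether Gm2260, Gm42603 or Anxa11os took reads from a member here is therefore not known. The value of Anxa11 is uncertain to that extent, and so are those of the other overlapped members. For the other members, between 95.6% (Anxa4) and 100% of words were found in no other gene.

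Anxa8 pointed the other way with little precision. Annexin A8 is found mainly in stratified epithelia, and its gene, on chromosome 14 at 34085981 to 34100571, lies within the gene A630023A22Rik on the opposite strand. Its log2 fold change was -0.60 (SE 0.46, adjusted p 0.376, DESeq2) at a baseMean of 359, with about 433 counts in young and 285 in aged mice. The 95% interval ran from 0.355-fold to 1.23-fold, so a fall and a small rise are both within it. Of the 1811 tested genes of similar abundance, 0.17% had a larger SE than Anxa8, and their median SE was 0.17. The largest SE in the whole table was 0.46.

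**Figure D3:**
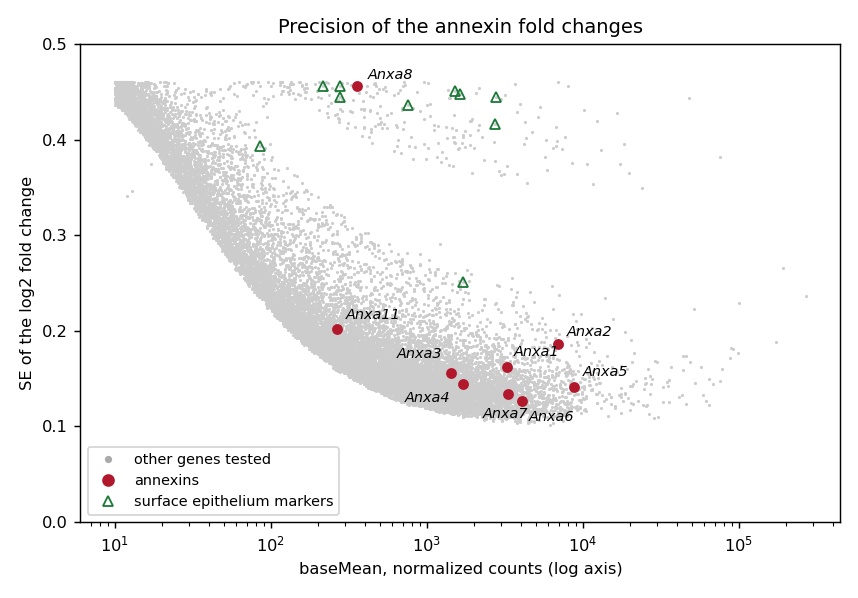
SE of the log2 fold change (y axis) against baseMean in normalized counts (x axis, log) for tested genes with a baseMean of at least 10 (grey), the 9 annexins (red circles) and 10 surface epithelium markers (green triangles). Anxa8 lies at 0.46, in a thin band of genes with a large SE that also holds most of the epithelial markers, while the other annexins lie between 0.13 and 0.20.

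A large SE was found in several groups of genes besides Anxa8. Above a baseMean of 200, an SE of at least 0.4 (limits chosen after the values had been seen) was found in 149 of 10880 tested genes (1.37%). Among them were 8 of 9 surface epithelium markers and 5 of 10 rod photoreceptor markers above that baseMean, but 0 of 8 RPE, 0 of 9 endothelial, 0 of 9 macrophage and 0 of 8 fibroblast markers. The limit runs through the rod list, in which the lowest SE was 0.389 (Sag), and the glial gene Gfap had 0.41. Anxa8 was the only one of the 9 annexins there. The median of the epithelial markers was -0.69 on the log2 scale, near the value of Anxa8. Of these markers, 1 of 10 was lower, 0 were higher and 9 did not pass, where 9.92% of all tested genes were lower. Krt15, a keratin of basal epithelium, had -0.49 (SE 0.44, adjusted p 0.473, DESeq2), and Krt12, the keratin of the corneal epithelium, had -0.73 (SE 0.42, adjusted p 0.208, DESeq2). The one marker that fell was Trp63, a regulator of stratified epithelium, at -1.61 (SE 0.39, adjusted p 0.000521, DESeq2). The part of such cells in the value of Anxa8 was not tested.

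Levels were compared between members per length. Divided by the length of the transcript with the longest coding sequence, Anxa5 had 5048 normalized counts per kilobase, Anxa2 4767, Anxa1 1949, Anxa6 1637, Anxa7 1138, Anxa3 891, Anxa4 836, Anxa8 191 and Anxa11 111. With the coding length in place of the whole transcript, Anxa3 and Anxa4 exchanged places, as did Anxa6 and Anxa7. Which transcript each cell type uses is unknown here, so the order within each of these pairs is not resolved.

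Together the 9 genes held 0.156% of all normalized counts in the table. The worked-out sums were 26089 counts in young and 33955 in aged mice, a ratio of 1.30, and 1.25 without Anxa4. Within the family the share of Anxa4 was 3.46% in young and 7.33% in aged mice. Anxa2 made up 26.8% of the family in young and 20.1% in aged mice, and Anxa5 26.5% and 31.1%. These shares are in counts not divided by length. On that scale Anxa5 and Anxa2 were level in young mice by this estimate, and Anxa5 was ahead in aged mice.

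The remaining annexin genes of the mouse were scarce in this tissue. Anxa9, whose product has lost calcium sites found in its relatives, stood at -0.84 on the log2 scale (SE 0.37, adjusted p 0.0890, DESeq2) at a baseMean of 105. Anxa13, an annexin of the intestine, stood at a baseMean of 1.14, too low for an adjusted p, and Anxa10, an annexin of the stomach, was listed at 0.

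Genes of proteins that bind annexins are given beside the 21.2% of all tested genes that passed, 11.3% of them as higher in aged mice. Of 6 S100 genes whose products bind annexins, 2 were higher, 0 lower and 4 did not pass, and their median log2 fold change was 0.28. S100a10, the partner of Anxa2, had -0.47 (SE 0.22, adjusted p 0.104, DESeq2) at a baseMean of 1541, and S100a11, the partner of Anxa1, had -0.68 (SE 0.36, adjusted p 0.176, DESeq2) at a baseMean of only 32.2. S100a6, a partner of Anxa11, had 0.14 (SE 0.25, adjusted p 0.757, DESeq2), and S100a1 had 0.41 (SE 0.17, adjusted p 0.0716, DESeq2). The genes that rose were S100b, at 1.22 (SE 0.19, adjusted p 1.28e-08, DESeq2), and S100a4, at 0.96 (SE 0.19, adjusted p 6.47e-06, DESeq2). Thus neither S100a10 nor Anxa2 passed the threshold, and for Anxa1 the partner gene on the list did not pass while Anxa1 itself did.

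Among 5 other binding partners, 1 was higher and 4 did not pass, where 21.2% of all tested genes passed. Ahnak, a giant scaffold protein that binds the complex of Anxa2 and S100a10, had 0.33 (SE 0.12, adjusted p 0.0403, DESeq2) at a baseMean of 64385, and this call was lost without a filter on low genes (adjusted p 0.0565) and after centring on abundant genes (adjusted p 0.115). Pdcd6 and Sri, calcium sensors that bind Anxa7 and Anxa11, had 0.30 (SE 0.16, adjusted p 0.168, DESeq2) and 0.11 (SE 0.13, adjusted p 0.588, DESeq2). Rasa1, a Ras inhibitor bound by Anxa6, had -0.26 (SE 0.15, adjusted p 0.225, DESeq2), and the membrane repair protein Dysf had -0.03 (SE 0.15, adjusted p 0.910, DESeq2).

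**Figure D4:**
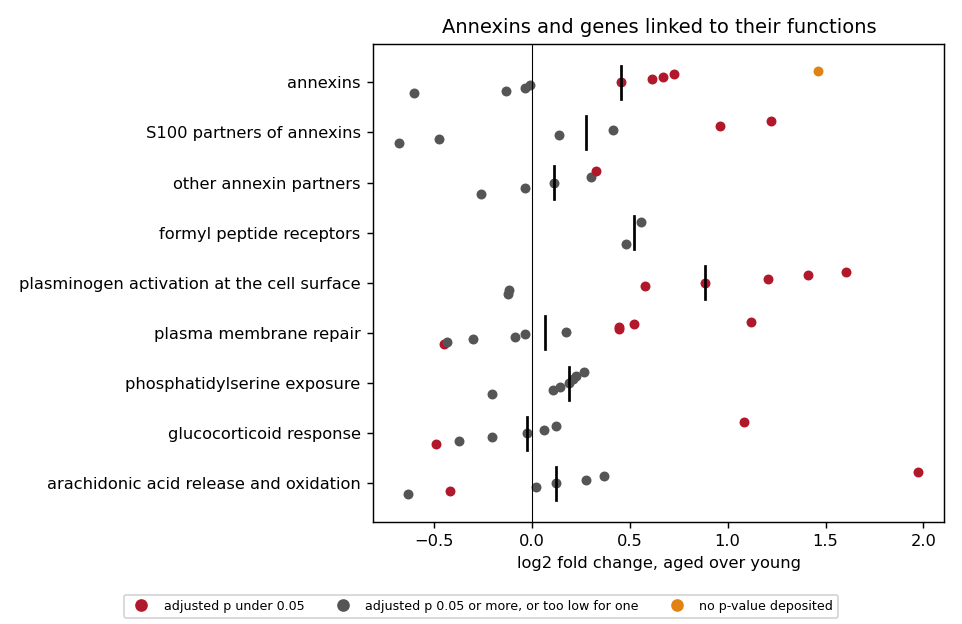
Log2 fold change in aged over young mice (x axis) of the annexins and of 8 lists of genes tied to their functions, 1 point per gene, with a black line at the median over all genes of a list that have a fold change, tested or not (0.88 for the plasminogen genes). Of the plasminogen genes, 5 lie between 0.58 and 1.60, while the phosphatidylserine genes lie between -0.20 and 0.27.

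The formyl peptide receptors, through which secreted annexin A1 acts on leukocytes, were near the limit of detection. Fpr1 had a baseMean of 13.6 and Fpr2 of 12.9, with log2 fold changes of 0.56 (SE 0.44, adjusted p 0.403, DESeq2) and 0.48 (SE 0.45, adjusted p 0.486, DESeq2). Fpr3 was listed at 0. Neither receptor gene passed, and an SE of this size leaves their change poorly resolved.

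Genes of plasminogen activation at the cell surface, the reaction that the complex of Anxa2 and S100a10 promotes, were listed with earlier results of these data known. Of 8 genes on the list, the table held 7 and tested 6, of which 5 were higher and 0 lower, with a median of 1.05, where 11.3% of all tested genes were higher. Plaur, the urokinase receptor, had 1.60 (SE 0.26, adjusted p 4.12e-08, DESeq2) and Plau, urokinase, 1.41 (SE 0.19, adjusted p 1.89e-11, DESeq2). Plat, tissue plasminogen activator, had 0.88 (SE 0.16, adjusted p 1.62e-06, DESeq2). The inhibitor Serpine2 rose too, with 0.58 (SE 0.14, adjusted p 0.000683, DESeq2), while Serpinf2, an inhibitor of plasmin, had -0.12 (SE 0.37, adjusted p 0.856, DESeq2). Plg, the gene of plasminogen itself, was almost absent, with a baseMean of 0.20. Beside these, the genes of the receptor complex itself, which are not on this list, had -0.04 (Anxa2) and -0.47 (S100a10), and neither passed.

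Lists for other known roles of annexins are given beside the 21.2% of all tested genes that passed, 11.3% as higher and 9.92% as lower. Of 10 membrane repair genes, 4 were higher, 1 was lower and 5 did not pass (median 0.07). Myof, a relative of Dysf, had 1.12 (SE 0.15, adjusted p 5.87e-12, DESeq2) and the calpain gene Capn2 had 0.52 (SE 0.13, adjusted p 0.0008, DESeq2), whereas Cav1, the coat protein of caveolae, fell by 0.45 (SE 0.13, adjusted p 0.00329, DESeq2). Smpd1, the most abundant of the list, had -0.30 (SE 0.14, adjusted p 0.0983, DESeq2). All 7 genes that control the exposure of phosphatidylserine, the lipid bound by Anxa5, did not pass, with values from -0.20 to 0.27 and 0.21 (SE 0.12, adjusted p 0.228, DESeq2) for Tmem30a, the most abundant of them.

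Glucocorticoid response genes were listed because annexin A1 is one of them. Of 7 genes, 1 was higher, 1 was lower and 5 did not pass, where 21.2% of all tested genes passed. Fkbp5 had 1.08 (SE 0.16, adjusted p 1.31e-10, DESeq2), and Tsc22d3, which encodes the glucocorticoid-induced leucine zipper, had -0.49 (SE 0.17, adjusted p 0.0206, DESeq2). The glucocorticoid receptor gene Nr3c1 had -0.21 (SE 0.11, adjusted p 0.157, DESeq2), and the kinase gene Sgk1, the most abundant of the list, had 0.12 (SE 0.13, adjusted p 0.571, DESeq2). Of 7 genes for the release and oxidation of arachidonic acid, the process that lipocortin was first named for restraining, 1 was higher and 1 lower. Alox5ap, the activator of leukotriene synthesis, had 1.97 (SE 0.18, adjusted p 4.77e-25, DESeq2), Ptgs1 had -0.42 (SE 0.14, adjusted p 0.0209, DESeq2), Ptges, the most abundant of the list, had 0.37 (SE 0.17, adjusted p 0.112, DESeq2), and the phospholipase gene Pla2g4a had 0.02 (SE 0.17, adjusted p 0.947, DESeq2).

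Cell type markers were set beside the annexins, since several members are abundant in blood cells and vessels. Among all genes tested, 11.3% were higher in aged mice. Of 9 macrophage markers tested, 7 were higher and 0 lower (median 1.92, from 0.15 for Mrc1 to 3.37 for Cd68), of which Csf1r lost its call after centring (adjusted p 0.0801), and their worked-out sum went from 12006 to 29562 counts. Of 8 neutrophil markers tested, 4 were higher and 0 lower, but the whole list of 10 summed to a baseMean of only 495, and the defining gene Ly6g stood at 0.30. Mast cell markers were higher in 7 of 8, with a median of 2.38 and a sum that went from 1269 to 2892 counts. The rises of Anxa1, Anxa3, Anxa5 and Anxa7, from 0.46 to 0.73, and the value of 1.46 for Anxa4 were thus all smaller than the medians of the macrophage and mast cell lists. The median of the neutrophil markers tested was 1.15, above those rises but below the value of Anxa4. The part of these cells in the annexin values was not tested.

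Markers of the resident tissue are given beside the 21.2% of all tested genes that passed. Of 9 RPE markers tested, 2 (Rgr and Best1) were higher and 7 did not pass (median 0.23), and the call of Best1 was lost without a filter on low genes (adjusted p 0.0573) and after centring (adjusted p 0.0696). Ttr, the most abundant gene of this list, had 0.08 (SE 0.18, adjusted p 0.810, DESeq2). Of 9 endothelial markers tested, 1 was higher and 1 lower (median -0.17). Melanocyte markers had 1 of 8 lower and 0 higher (median -0.05). Of 8 fibroblast markers, 4 were lower and 2 higher, with the collagen genes Col1a1 at -2.91, Col3a1 at -2.14 and Col1a2 at -1.80, and with Dcn at 0.51. For 8 skeletal muscle markers tested, 3 were lower and 0 higher (median -0.46), while 0 of 10 rod markers and 0 of 7 Schwann cell markers passed. Of 8 markers of Müller glia and astrocytes, 2 were higher and 1 lower.

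Missing p-values were common among lens genes. The p-value was absent for 6 of 8 lens crystallins, with log2 fold changes from -0.59 to -0.15 over the list. Anxa4 shared the missing p-value with these genes but not their direction.

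**Figure D5:**
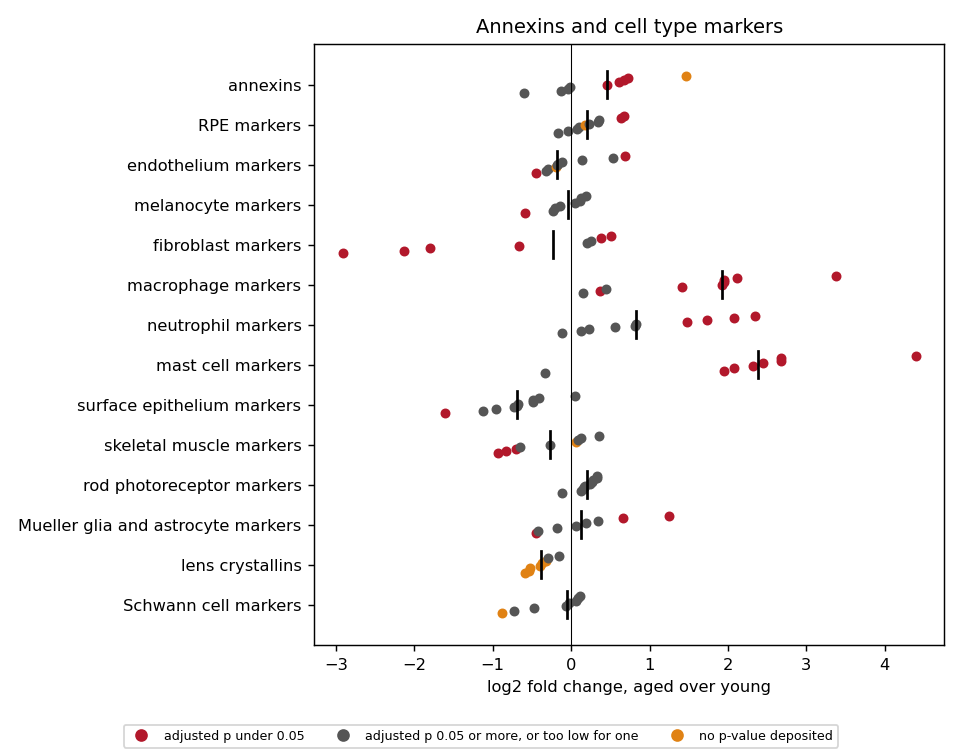
Log2 fold change in aged over young mice (x axis) of the annexins and of 13 lists of cell type markers, 1 point per gene, with a black line at the median over all genes of a list that have a fold change, tested or not. Macrophage and mast cell markers have medians of 1.92 and 2.38, above every annexin, and the surface epithelium markers have a median of -0.69, near Anxa8 at -0.60.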

How the data were processed

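RNA after removal of ribosomal RNA, without poly(A) selection and with a stranded kit, was sequenced from 3 young and 3 aged RPE/choroid samples. The authors trimmed reads with BBDuk, mapped them with STAR to GRCm38 transcripts, quantified them with Sailfish, scaled by total count and ran DESeq2. The deposited table holds that comparison only, with 0 columns that name a sample. Its baseMean is a normalized signal averaged by the authors over 6 libraries, its fold changes and SEs were deposited on the log2 scale, and its Wald score, p-value and adjusted p-value were deposited by the authors. These columns were described and no count test was rerun, although they hold the authors' own comparison. The file does not name the direction of its sign. It was read as young over aged, since 1849 called genes are positive and 2100 negative, which matches the split described in the study, and it was turned round, so every direction here rests on that reading. A median SE of 0.24 below a baseMean of 2, against 0.43 in tested genes below 30, may mean that fold changes were shrunk, which the sources used here do not state. Folds of low or variable genes would then be understated.

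The members and all lists were chosen with earlier results of these data known. Named are all 9 members, the remaining annexins, the genes of 4 partner lists (a single value is not reported here) and, elsewhere, up to 3 genes with the lowest adjusted p and the most abundant one, of which the text prints a part for the marker lists. Exceptions named after their values were seen are Rpe65, Cdh5, Krt12, Mrc1, Ly6g, Sag, Gfap, Dcn and Pla2g4a. Group levels were worked out from baseMean and fold change for equal group sizes. Intervals at 95% are the log2 fold change with its SE under a normal approximation. Positions, lengths and words of 31 bases came from GENCODE M21 (GRCm38), promoters from RefSeq (GRCm38.p6). Python 3.11.15, pandas 2.3.3, scipy 1.17.1 and Biopython 1.88 were used. Adjustment and Wald p were tested on simulated data. Protein sequences were not used here, so the planned protein motifs were not counted.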

Additional observations from a re-analysis of the deposited data

How the results depend on the processing

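The number of members that passed was 4, all higher in aged mice and the same genes (Anxa1, Anxa3, Anxa5 and Anxa7), with no filter on low values, with a minimum baseMean of 100, with fold changes centred on abundant genes (shift 0.06) and at an adjusted p under 0.01. It was 5 when p came from the Wald score where none was deposited, since Anxa4 then entered (adjusted p 5.96e-22), but that p ignores the screen for an extreme library. It was 0 when a change of 1 or more on the log2 scale was also asked for, which is stricter by construction. Over all annexin genes of the table the median log2 fold change was 0.0304 in place of 0.46, because Anxa9 and Anxa13 were added, and after centring it was 0.39 over the 9 members. Over the whole table centring gave 1655 higher and 2289 lower genes, against 2100 and 1849. Of 95 named genes followed, 1 changed direction, Anxa13 to -0.0341 after centring. Centring made 4 calls weaker (Ahnak, Best1, Csf1r and Actb) and 3 stronger (Smpd1, Nr3c1 and Krt13).

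No paired analysis was possible because values of single libraries were not used here. Fits without 1 library and the replicate block were not run, for that reason.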
